A study of Homo sapiens with 8 samples.

Results

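The PML nuclear body genes described here are 7 genes: PML, which makes the scaffold of the body, the 4 genes of the SP100 family (SP100, SP110, SP140 and SP140L), and the histone chaperone DAXX with its partner ATRX. They were chosen by symbol from a table of 26372 gene symbols. All 7 were found, each in a single row. The RNA came from a human neuroblastoma line, BE(2)-M17, that is established in culture and was grown in medium with serum. There was an untreated group, and the treated group received interferon-γ (IFN-γ), the cytokine by which T cells and natural killer cells activate macrophages, for 24 h at 10 ng/ml, with 4 libraries in each group. All 8 libraries carry the M17 label and share the line and its genotype, so nothing here speaks for other cells, and no vehicle is named for the untreated group. Separate cultures are not named in the labels for the 4 libraries of either group, so p-values measure only the spread between these libraries.

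PML nuclear bodies are round structures of the cell nucleus. PML protein forms their shell, is modified by the small protein SUMO, and through SUMO draws in other proteins, among them SP100 and DAXX. PML and SP100 are long known as genes that interferons raise, and the bodies are known for restraining incoming viral genomes and for handling DNA damage and histone deposition. In neuroblastoma, ATRX is known as a gene mutated in some tumours, where its loss goes with telomere upkeep by recombination.

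The values are FPKM, fragments per kilobase of transcript scaled for library depth, which is a level per length, so that levels of different genes can be set beside each other. Depth, estimated from the median of low values, was about 14.3 to 20.3 M fragments (M is mega) per library. At that depth 1 fragment per kilobase was worth 0.0492 to 0.0702 FPKM. Only values in a fixed range entered, which bounds the estimate, so all fragment numbers here are rough. The target was 100 M reads per library. IFN-γ replicate 4 correlated less with its group over tested genes (Pearson r from 0.98296 to 0.98489) than the other 3 IFN-γ libraries did with each other (0.98514 to 0.98824). Of 15 neuroblastoma markers, 14 exceeded 1 FPKM. Among markers of other cells, MS4A1, CD3D, CD3E, CD3G, CD2 and FCGR3A were listed at 0 in all 8 libraries and no myeloid marker exceeded 1 FPKM, while the B cell markers PAX5 and BLK and the T cell marker CD8A did in some library. The summed level ran from 13.6 to 15.6 FPKM untreated and 11.6 to 17.2 with IFN-γ for 7 B cell markers, mostly PAX5, and from 1.36 to 1.92 and 0.827 to 1.60 for 8 T and natural killer cell markers. For 9 myeloid markers it was 1.09 to 1.38 and 1.28 to 1.78. For 10 fibroblast and Schwann cell markers, 6 of them above 1 FPKM, it was 210 to 216 and 210 to 259.

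With IFN-γ, PML, SP100, SP110 and SP140L rose and none of the 7 genes fell. DAXX and ATRX, the most abundant of the 7 in both groups, did not pass the test. SP140 appeared at a trace level. The test was limma with a mean-variance trend on log2(FPKM + 0.1), run on 13598 genes whose mean reached 0.5 FPKM, with two-sided p-values adjusted by Benjamini-Hochberg across all of them and called under 0.05. 6 of the 7 genes passed that filter and SP140 did not. Of the 6, 4 were called higher, where 13.3% of all tested genes were. None was called lower, and none was lower even at an unadjusted limma p under 0.05, where 9.05% of all tested genes were called lower by the adjusted p and 22.3% were called in either direction. The same 4 had groups that did not overlap, which 28.2% of all tested genes did. SP100, SP110 and SP140L passed the filter only through their IFN-γ libraries and so had to differ. PML, DAXX and ATRX were above it in both groups. In bulk RNA, fewer cells of a type and less RNA per cell cannot be told apart.

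**Figure D1:**
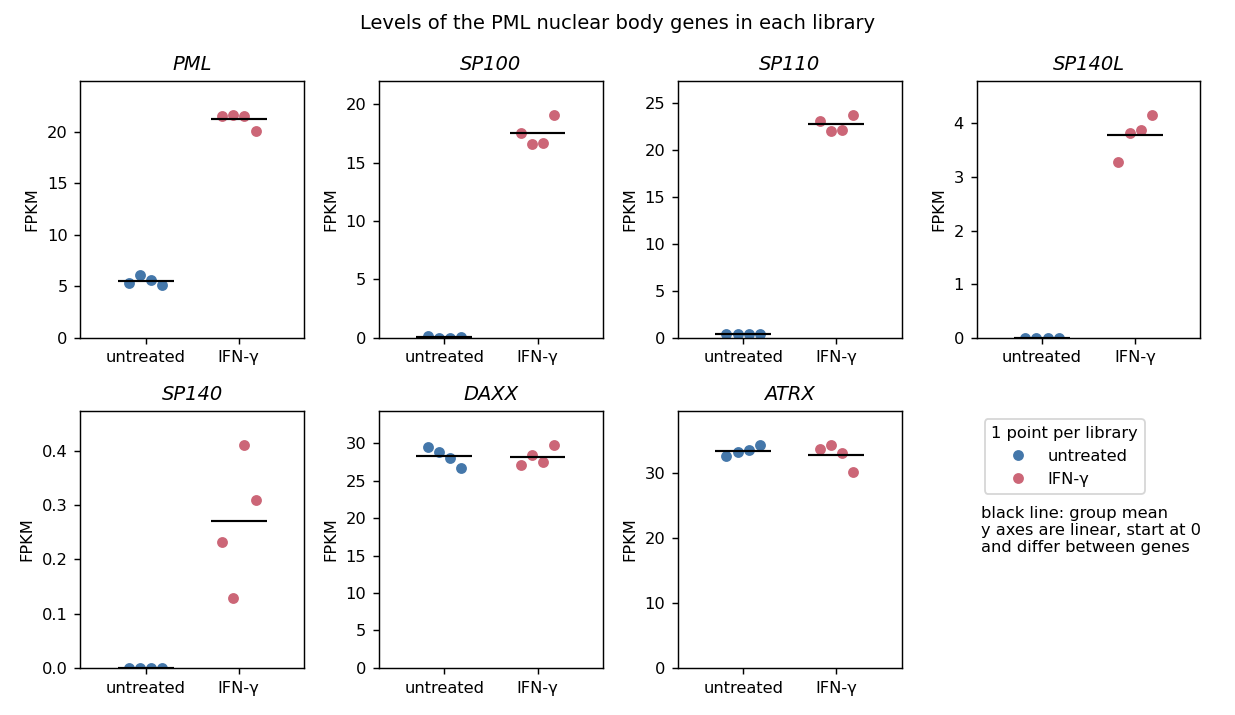
FPKM (linear axes from 0, different for each gene) of the 7 genes, 1 point per library, with 4 untreated and 4 IFN-γ libraries and the group mean as a black line. The IFN-γ libraries of PML (20.06 to 21.70) lie above all untreated ones (5.159 to 6.059), SP100, SP110 and SP140L start at or close to 0, and the groups of DAXX and ATRX overlap.

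PML encodes the protein that builds the shell of the body. Its gene lies on chromosome 15 at 73994673 to 74047812 on the plus strand (GRCh38, GENCODE release 29). The untreated libraries held 5.348, 6.059, 5.639 and 5.159 FPKM in replicates 1 to 4, and the IFN-γ libraries 21.57, 21.70, 21.57 and 20.06 FPKM. PML was thus present before treatment, and every IFN-γ library lay above every untreated one. The means were 5.55 ± 0.392 and 21.2 ± 0.778 FPKM (SD, n = 4 each), a ratio of 3.82. This is a log2 change of 1.92 with an SE of 0.06 (limma adjusted p = 2.8e-09), and 212 tested genes, PML among them, changed at least that far upward. PML stood above 67.7% of all listed symbols in untreated cells and above 86.3% with IFN-γ. About 459 to 635 fragments lay behind each untreated value and 1668 to 2199 behind each IFN-γ value. The table gives 1 value for the gene, so the protein's many splice forms, which differ in where they go in the nucleus, were not separated. No stretch of 75 nt of a PML transcript occurs in a transcript of another annotated gene.

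The 4 genes of the SP100 family lie side by side on chromosome 2. SP110 runs on the minus strand from 230167293 to 230225729. SP140 (230203110 to 230313215), SP140L (230327184 to 230403732) and SP100 (230415942 to 230544090) follow on the plus strand, and the cluster spans 376.8 kb. The annotated extents of SP110 and SP140 overlap over 22620 bases on opposite strands. The library kit does not mark strand, so fragments from the shared DNA cannot be assigned by strand. The RefSeq start of SP140 used below, at 230225736, lies beyond the SP110 extent, so transcripts from that start do not enter the overlap. Most proteins of the family carry a SAND domain, which binds DNA. SP110, SP140, SP140L and some forms of SP100 also carry a PHD finger and a bromodomain, modules that read histone marks.

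The 4 genes of the cluster are neighbours, and each had higher values with IFN-γ. The DNA before their starts was therefore compared, in the RefSeq promoter windows (GRCh38.p14, 250 bases before to 50 after each start). SP100 and SP110 had 2 windows each and SP140 and SP140L 1 each. The 120 bases before a start are printed for SP110 (chr2:230225637-230225756, minus strand), SP140L (chr2:230327073-230327192, plus strand) and the first start of SP100 (chr2:230416081-230416200, plus strand), 5′ to 3′ on the strand of the gene. These show how alike SP140L and SP100 are. Capitals mark 3 runs of 8 bases, AAGTGAAA, GGAAAAGA and AGGAGGAG or their reverse complements, the longest that the first windows of all 4 genes share on either strand. The AGGAGGAG of SP140L begins at -136 and so lies before the printed bases. The start of SP140 lies 100 bases from that of SP110 and faces away from it, in the same DNA, and is not printed apart.
SP110: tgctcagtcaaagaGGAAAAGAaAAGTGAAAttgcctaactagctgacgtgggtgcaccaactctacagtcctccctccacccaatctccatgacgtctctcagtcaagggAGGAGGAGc
SP140L: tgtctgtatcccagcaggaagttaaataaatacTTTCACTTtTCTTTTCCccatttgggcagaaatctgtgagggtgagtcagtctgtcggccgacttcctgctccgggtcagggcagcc
SP100: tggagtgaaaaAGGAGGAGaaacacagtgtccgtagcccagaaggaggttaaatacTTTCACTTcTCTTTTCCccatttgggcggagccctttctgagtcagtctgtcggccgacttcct

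Over the 250 bases before the starts of SP100 and SP140L, 207 of 222 aligned base pairs were identical (93.2%). A further 56 bases stood against gaps and are not in that share. The shared runs of SP100 and SP140L are therefore not separate observations. SP110 and SP100 had 59.8% identical on the same strand, also with gaps left out, and the remaining same-strand pairs had 47.9 to 53.4%. In the first windows AAGTGAAA begins at -97 in SP110, -10 in SP140, -87 in SP140L and -64 in SP100. Positions are counted from the start to the first base of the match, and the SP110 and SP140 matches are the same bases. The second window of SP110 also held AAGTGAAA at -51 and AGGAGGAG at -221, both as reverse complements. Of all 35116 promoter windows of 300 bases, 1.62% held AAGTGAAA, 2.27% GGAAAAGA and 6.80% AGGAGGAG, on either strand. These 3 runs were found by comparing the sequences and were not looked for beforehand. 2 motifs named for interferon signalling were also searched on both strands. The core TTCNNNGAA, named GAS, occurred in 7.66% of all windows and, among these genes, only in the second window of SP110, at -38. The core GAAANNGAA occurred in 8.11% of all windows and in none of the 6 windows of these genes. Only these exact letters and spacings were searched, so the absence of a match does not show that interferon-type elements are lacking. A match is a description of letters and says nothing of binding in these cells.

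SP100 is a lasting component of the nuclear body and can silence viral genomes. Its untreated libraries held 0.1326, 0, 0 and 0.03309 FPKM, at most about 9 fragments. Its IFN-γ libraries held 17.54, 16.63, 16.72 and 19.12 FPKM (mean 17.5 ± 1.16, SD, n = 4), from 920 to 1509 fragments. SP100 was thus near or at 0 in all untreated libraries and a little under PML in level in all IFN-γ libraries. The log2 change of 7.05 (SE 0.25, limma adjusted p = 8.9e-09) was the 29th largest rise, yet its size is set by the pseudocount. With pseudocounts of 1 and 0.01 it was 4.15 and 9.29. An exact 0 in such a table can be a failed estimate. H3F3A, a histone gene that every cell uses, was also listed at 0 in 3 of the 8 libraries.

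SP110 is a body component known in humans for an inherited immune deficiency with liver disease. Its untreated libraries held 0.4237, 0.4420, 0.3957 and 0.3760 FPKM, from about 15 to 21 fragments each. With IFN-γ they held 23.09, 22.04, 22.19 and 23.81 FPKM. SP110 was thus low but present in each untreated library, and the IFN-γ libraries lay far above. The means were 0.409 ± 0.0293 and 22.8 ± 0.829 FPKM (SD, n = 4 each), a ratio of 55.7. On the log2 scale SP110 rose by 5.49 with an SE of 0.07 (limma adjusted p = 5.0e-12). Of the stretches of 75 nt in SP110 transcripts, 14.6% also occur in the antisense gene AC009950.1, which is not analysed here, so some fragments could belong to either.

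SP140L, the close relative of SP140, was listed at 0 in all 4 untreated libraries. Its IFN-γ libraries held 3.281, 3.816, 3.868 and 4.165 FPKM (mean 3.78 ± 0.368, SD, n = 4), from 145 to 226 fragments. It was therefore seen in every treated and no untreated library, at a level under that of SP100 and SP110. Its log2 change was 5.27 (SE 0.17, limma adjusted p = 4.3e-09), 2.26 with a pseudocount of 1 and 8.56 with 0.01. 21 tested genes, SP140L among them, were at 0 in all untreated libraries and above 1 FPKM in every IFN-γ library.

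SP140 is a chromatin reader known mainly from immune cells. It too was listed at 0 in all 4 untreated libraries, and its IFN-γ libraries held 0.2317, 0.1286, 0.4113 and 0.3085 FPKM, from about 6 to 22 fragments. These levels lie within or under the untreated range of SP110. Its mean was under the filter, so it was not tested with that filter, and its groups differed by 1.83 on the log2(FPKM + 0.1) scale. With no filter it was called higher (limma adjusted p = 6.3e-04). It entered that fit only through its IFN-γ libraries and, with 0 in every untreated one, could differ only upward. That call is therefore not read as support for a rise. SP140 and SP140L share 552 stretches of 75 nt, which are part of the 10.6% of SP140 stretches and 9.73% of SP140L stretches found in another gene. Some SP140 fragments may therefore belong to SP140L. Any from the overlap of the annotated extents may belong to SP110, and the division was not tested.

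The rise within the cluster was not seen at this size next to it. Of 11 flanking genes 7 were tested, with changes between -0.30 and 0.15 on the log2 scale. The closest tested ones, named for their position, were FBXO36 at 154 kb (0.09, SE 0.17) and CAB39 at 169 kb (0.02, SE 0.04), neither called. PSMD1, a subunit of the proteasome, rose by 0.15 and ARMC9, a protein of the cilium, by 0.13. HTR2B, a serotonin receptor, fell by 0.30 and ITM2C, a membrane protein, by 0.22. The limma adjusted p-values of these 4 ran from 0.0132 (PSMD1) to 0.0465 (ARMC9). ARMC9 and ITM2C lost their calls without any library other than IFN-γ replicate 4 (up to 0.124 and 0.086), HTR2B on leaving out IFN-γ replicate 3 or untreated replicate 1 or 2 (up to 0.0613), and PSMD1 with quantile normalization (0.614).

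**Figure D2:**
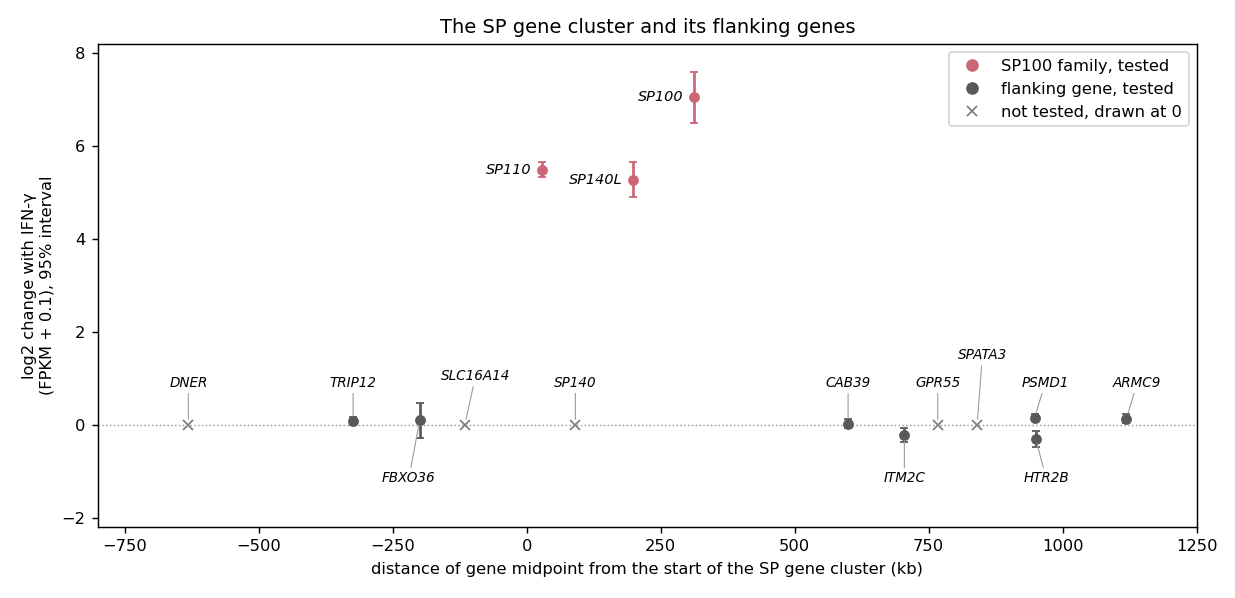
Log2 change with IFN-γ on the log2(FPKM + 0.1) scale, with its 95% interval (limma, 4 against 4 libraries), against the distance in kb of each gene's midpoint from the start of the cluster. SP110, SP140L and SP100 lie between 5.27 and 7.05 and the tested flanking genes between -0.30 and 0.15, while crosses at 0 mark genes that were not tested and have no value.

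Summed over the 4 genes, the family went from 0.396 to 0.556 FPKM in untreated libraries to 42.6 to 47.4 FPKM with IFN-γ. The makeup of that sum was close to the same in each IFN-γ library. SP110 made 50.2 to 52.3% of it, SP100 38.7 to 40.3%, SP140L 7.43 to 8.96% and SP140 0.302 to 0.952%. In untreated libraries SP110 made 76.2, 100, 100 and 91.9%, and SP100 the rest, from very few fragments. The ratio of SP110 to SP100 in the IFN-γ libraries was 1.316, 1.325, 1.327 and 1.245.

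**Figure D3:**
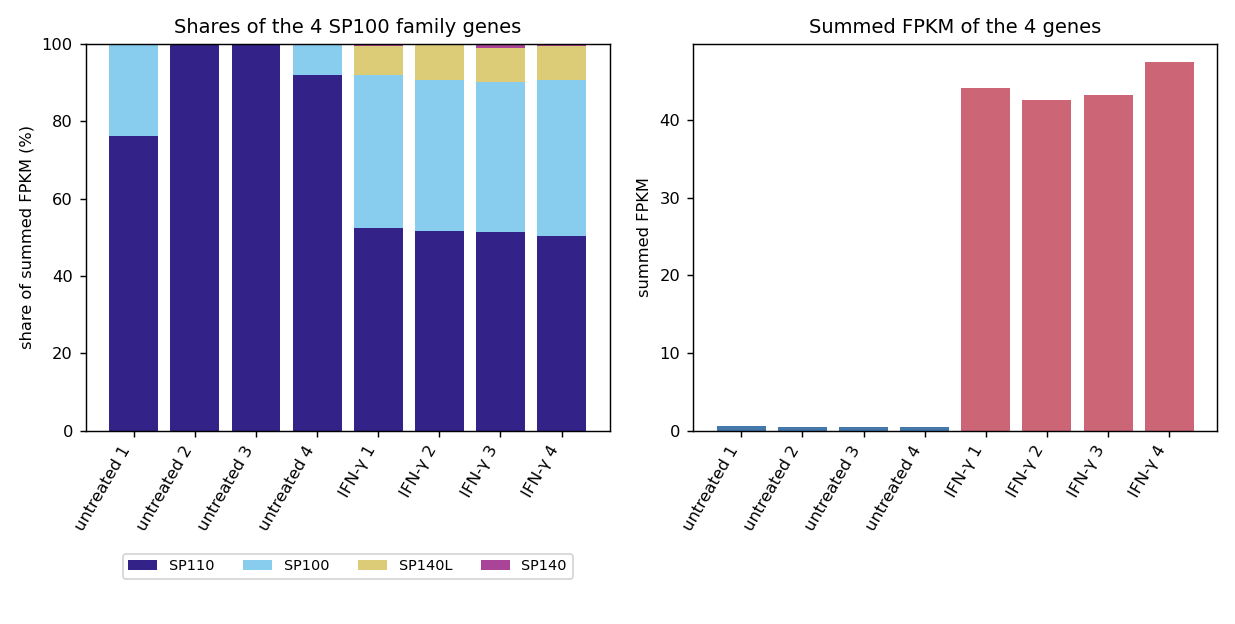
Left, share (%) of the summed FPKM of the 4 SP100 family genes that each gene made in each of the 8 libraries, and right, the summed FPKM from 0. In the IFN-γ libraries SP110 makes 50.2 to 52.3% and SP100 38.7 to 40.3% of a sum of 42.6 to 47.4 FPKM, while the untreated sums are 0.396 to 0.556 FPKM.

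Whether these genes changed by different amounts was asked with 5 log2 ratios of FPKM + 0.1 inside each library, compared between groups by an exact two-sided permutation test over 70 arrangements. A ratio to a gene at or near 0 depends on the pseudocount and on the scale of the library, which touches every untreated ratio to SP100. PML to SP100 went from 5.41 ± 0.639 to 0.278 ± 0.145 (mean ± SD, n = 4 each, exact p = 0.02857, adjusted over the 5 ratios 0.0357, with the raw p the smallest that 4 against 4 libraries can give), and the ratio was lower in each IFN-γ library than in any untreated one. The size of this difference rests on the pseudocount. With SP100 at or near 0 in every untreated library, the p-value adds nothing beyond the rise of SP100 already given. It is not read as support for unequal change. In the 2 untreated libraries where SP100 was above 0, the plain FPKM ratio was 40.3 and 155.9, against 1.05 to 1.31 with IFN-γ. The ratios of SP110, SP140 and SP140L to SP100 were also called (exact permutation test, adjusted p = 0.0357 each). Their untreated side rests on the pseudocount, so neither the calls nor their direction are read as support for unequal change. With IFN-γ SP140L to SP100 ran from 0.187 to 0.231 in plain FPKM. A ratio with no gene at 0, chosen after the values were seen and not tested, is PML to SP110 in FPKM. It was 12.62, 13.71, 14.25 and 13.72 untreated and 0.934, 0.985, 0.972 and 0.843 with IFN-γ.

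DAXX binds SUMO on PML and hands the histone variant H3.3 to chromatin. The gene lies on chromosome 6 at 33318558 to 33323016 on the minus strand. Its untreated libraries held 29.55, 28.80, 28.03 and 26.65 FPKM and its IFN-γ libraries 27.14, 28.41, 27.56 and 29.81 FPKM. The groups overlapped over nearly their whole range, with means of 28.3 ± 1.24 and 28.2 ± 1.18 FPKM (SD, n = 4 each). The log2 change was -0.0014 with a 95% interval of -0.10 to 0.10 (limma adjusted p = 0.988). Of the DAXX stretches of 75 nt, 10.6% occur also in the overlapping gene model AL662820.1, which is not analysed here.

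ATRX is a chromatin remodeller that works with DAXX in placing H3.3 at repeats and telomeres. Its gene lies on the X chromosome at 77504878 to 77786233 on the minus strand. The untreated libraries held 32.64, 33.15, 33.45 and 34.32 FPKM and the IFN-γ libraries 33.60, 34.32, 33.01 and 30.20 FPKM. The groups overlapped, and the lowest value was IFN-γ replicate 4. The means were 33.4 ± 0.704 and 32.8 ± 1.80 FPKM (SD, n = 4 each). The log2 change was -0.03 with a 95% interval of -0.13 to 0.07 (limma adjusted p = 0.709). In TPM, a rescaling that moved the median of all tested genes by 0.79, DAXX and ATRX were called higher by 0.80 and 0.78, which is 0.014 and -0.012 relative to that median.

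The DAXX to ATRX ratio inside a library ran from 0.777 to 0.906 untreated and from 0.808 to 0.987 with IFN-γ. The log2 ratio differed by 0.03 between groups (exact permutation p = 0.80, the same after adjustment).

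The order of levels changed in the middle. In untreated cells ATRX was highest, then DAXX, PML, SP110 and SP100, with SP140 and SP140L at 0. With IFN-γ it was ATRX, DAXX, SP110, PML, SP100, SP140L and SP140. SP110 and PML thus changed places, by a narrow margin: the lowest SP110 library held 22.04 FPKM and the highest PML library 21.70. FPKM of different genes rests on transcript lengths from an annotation that is not given. Of the SP110 stretches of 75 nt, 14.6% also occur in AC009950.1, and no PML stretch occurs in another gene. An order this close is therefore not secure. Neighbours in either order had library ranges that did not overlap, other than SP100, SP140 and SP140L in untreated cells.

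For each of the 6 tested genes, the 2 other tested genes with the most similar values were found by the root mean square difference of log2(FPKM + 0.1) over the 8 libraries. For PML they were DOCK9 (0.0920) and KCNMA1 (0.173), and DOCK9 went from 5.40 to 21.0 FPKM. For SP100 they were GBP3 (0.306) and SOCS1 (0.337), for SP110 HLA-DMA (0.287) and HAPLN3 (0.324), and for SP140L HLA-DQB1 (0.175) and RTP4 (0.225). For DAXX they were CHMP4B (0.0394) and RCOR3 (0.0513), and for ATRX ZFP91 (0.0306) and ABCC1 (0.0340). These are similarities of level and change in 8 libraries, and the HLA genes have near-identical relatives.

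The genes that act on the body were described as lists, against a median log2 change of -0.0047 over all tested genes, of which 13.3% were called higher and 9.05% lower. SUMO conjugation, which modifies PML, had 14 of 14 genes tested and none called in either direction, with a median of 0.02. At an unadjusted limma p under 0.05, 3 were higher and 2 lower. Its most abundant gene was SUMO2 (343 ± 9.32 and 410 ± 65.6 FPKM, log2 change 0.24, limma adjusted p = 0.0963). SUMO2 was called higher without IFN-γ replicate 4 (0.14, adjusted p = 0.00621). SUMO removal had 1 of 9 higher and 1 lower, with a median of -0.02. SENP6, which trims SUMO chains, rose from 25.7 ± 0.671 to 32.9 ± 0.892 FPKM (log2 change 0.35, adjusted p = 7.0e-05). DESI2 fell by 0.17 (adjusted p = 0.0156), a call lost without untreated replicate 2 (0.056).

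PML turnover, the ubiquitin ligases, proteases and kinases that set how long PML lasts, had 1 of 13 higher and 1 lower, with a median of -0.0037. SIAH2, a ubiquitin ligase, rose from 14.1 ± 0.921 to 20.1 ± 0.881 FPKM (log2 change 0.51, limma adjusted p = 9.8e-05). RNF111, a ligase that reads SUMO chains, fell by 0.18 (adjusted p = 0.0212), a call lost without untreated replicate 2 (0.0595) or 3 (0.0673).

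Nuclear body clients, proteins known to visit the body, had 6 of 23 higher and 1 lower (13.3% and 9.05% of all tested genes), with a median of -0.04. ISG20, an RNA exonuclease induced by interferons, rose from 0.540 ± 0.134 to 4.06 ± 0.763 FPKM (log2 change 2.70, limma adjusted p = 1.7e-06). NBN and MRE11A encode subunits of 1 DNA break complex and moved in opposite directions. NBN rose from 12.2 ± 0.454 to 23.1 ± 0.860 FPKM (0.92, adjusted p = 1.6e-07), and MRE11A fell from 19.0 ± 0.266 to 15.5 ± 0.926 FPKM (-0.30, adjusted p = 0.0014). HIPK2, a kinase that acts on p53, rose by 0.41 (adjusted p = 0.0134). The other 3 called higher were EIF4E (0.20), MORC3 (0.26) and SMC6 (0.21), named here after their values were seen. Of the 6, 4 lost their call in TPM without short RNA genes, while ISG20 and NBN did not. MRE11A lost its call in TPM.

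H3.3 deposition and silencing, the genes that work beside DAXX and ATRX, had 18 of 18 tested and none called in either direction, with a median of -0.0069. At an unadjusted limma p under 0.05, 2 of them were higher and 3 lower. By the mean over all 8 libraries the most abundant were CBX3, a heterochromatin protein (174 ± 3.84 and 190 ± 20.6 FPKM, log2 change 0.12, limma adjusted p = 0.236), and H3F3B, which encodes H3.3 (96.3 ± 2.67 and 112 ± 13.4 FPKM, 0.22, 0.0579). Without IFN-γ replicate 4, 2 of the 18 were called higher, H3F3B among them (0.13, adjusted p = 0.00432), and 3 lower. H3F3A, which encodes the same protein, was erratic, with 24.84, 11.67, 0 and 2.780 FPKM untreated and 0, 6.406, 0 and 6.590 with IFN-γ, and was named after its values were seen.

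Relatives with a bromodomain, PHD finger or SAND domain had 8 of 11 tested, 1 higher and 1 lower, with a median of -0.05. BAZ2A, a silencer of ribosomal DNA, rose from 21.7 ± 0.513 to 28.8 ± 3.39 FPKM (log2 change 0.40, limma adjusted p = 0.0045). ZMYND11, a reader of modified H3.3, fell by 0.14 (adjusted p = 0.0379), which lost its call on leaving out IFN-γ replicate 1 or 3 or any untreated replicate other than 4 (up to 0.111). AIRE, the relative known from the thymus, was not tested because its mean was under the filter.

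IFN-γ signalling ends in transcription factors of the STAT and IRF families. All 6 that were tested rose, with a median of 3.13, where 13.3% of all tested genes were called higher. The other gene of the list, IRF8, was not tested because its mean was under the filter. IRF1 went from 0.584 ± 0.0405 to 125 ± 2.14 FPKM (log2 change 7.52, limma adjusted p = 6.9e-14). IRF9 rose by 3.22 and STAT2 by 3.03.

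**Figure D4:**
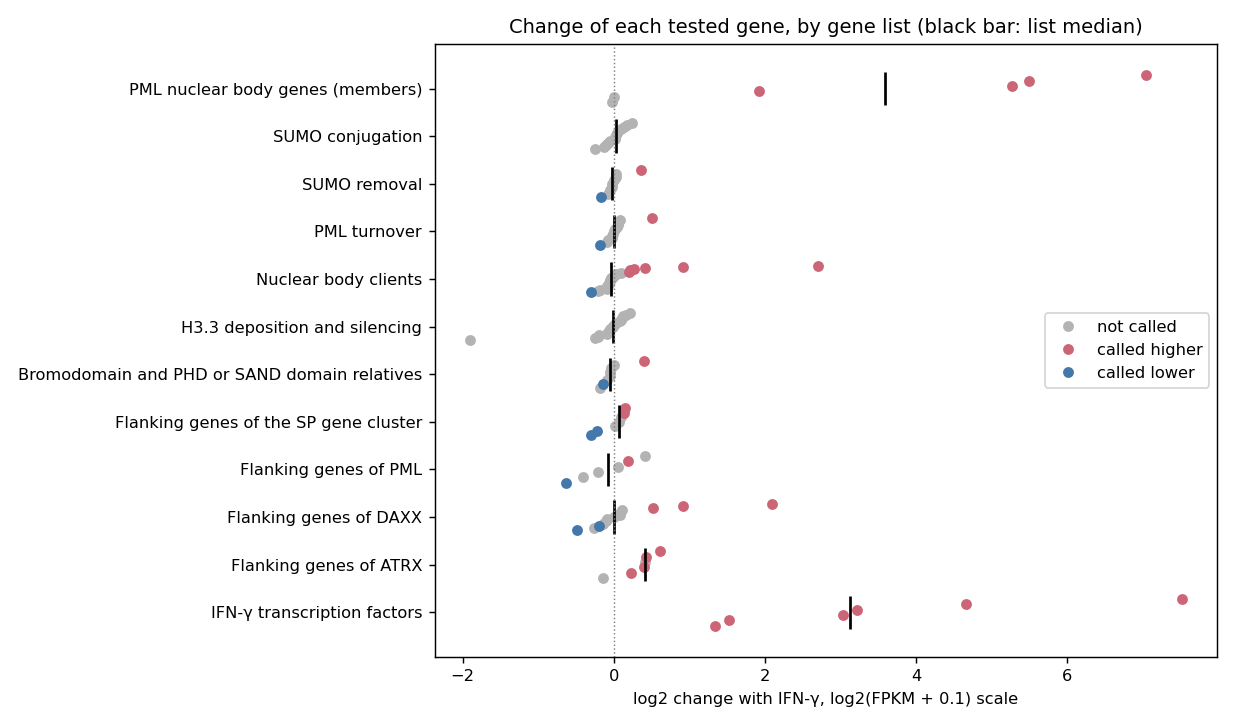
Log2 change with IFN-γ on the log2(FPKM + 0.1) scale of every tested gene of each list, 1 point per gene, coloured by its call at a limma adjusted p of 0.05, with the list median as a black bar. SP100, SP110, SP140L and PML lie at 1.92 to 7.05 and the IFN-γ transcription factors at 1.34 to 7.52, while most genes of the SUMO, turnover and H3.3 lists lie near 0 and the point near -1.90 is H3F3A.

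The genes next to PML, DAXX and ATRX differed among themselves. STOML1 lies 0.051 kb from PML on the opposite strand and, named for its position, had values of 2.186, 2.969, 2.754 and 3.652 FPKM untreated and 2.249, 1.921, 2.082 and 2.272 with IFN-γ (log2 change -0.40, limma adjusted p = 0.0711). It was called lower without untreated replicate 1 (-0.52, adjusted p = 0.0174). Of the 6 tested flanks of PML, with a median of -0.07, ISLR2 fell from 2.26 ± 0.160 to 1.43 ± 0.219 FPKM (-0.63, adjusted p = 0.0044) and STRA6, a retinol transporter, rose by 0.19 (adjusted p = 0.0222), which lost its call on leaving out IFN-γ replicate 1 or 3 or any untreated replicate other than 1 (up to 0.072).

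DAXX lies in the major histocompatibility region. TAPBP, which encodes the peptide-loading protein tapasin, is 4.17 kb away and had 17.79, 16.78, 16.50 and 17.16 FPKM untreated and 79.09, 76.44, 80.50 and 59.79 with IFN-γ. Its groups did not overlap (log2 change 2.10, limma adjusted p = 3.2e-08), beside a DAXX level whose groups did. ZBTB22, 0.616 kb from DAXX, rose by 0.52 (adjusted p = 0.0060) and BAK1, which opens the mitochondrial membrane in cell death, by 0.92 (adjusted p = 9.3e-05), while RGL2 fell by 0.49 (adjusted p = 0.0013). In all, 3 of 13 tested flanks of DAXX rose and 2 fell, where 13.3% and 9.05% of all tested genes did, with a median of -0.0017.

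Around ATRX, 4 of 6 tested flanks rose and none fell (0 also at an unadjusted limma p under 0.05), where 13.3% of all tested genes rose and 9.05% fell, with a median of 0.41. ATP7A, a copper pump, rose from 44.9 ± 0.345 to 68.3 ± 1.61 FPKM (log2 change 0.61, limma adjusted p = 3.3e-07). MAGT1, a magnesium transporter 40.1 kb away, rose by 0.43 (adjusted p = 3.0e-04), COX7B, a subunit of cytochrome oxidase, by 0.40 (0.0126) and PGK1, a glycolytic enzyme, by 0.22 (0.0185). PGK1 lost its call without untreated replicate 2 (0.0579), and without IFN-γ replicate 4 the list had 5 higher and 1 lower.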

How the data were processed

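RNA-seq of 8 libraries (4 untreated, 4 IFN-γ) was used. The authors deposited FPKM per gene, made with TopHat2 and Cuffdiff on hg38, per the submitters' processing notes. Versions, the gene annotation and any scaling between libraries: not given in the sources used here. Per the labels' protocols, libraries were made from 1 µg of RNA and read as pairs of 150 nt. Every sample carries the M17 label, although SH-SY5Y appears beside it in the growth protocol. Groups come from the treatment label and replicate numbers from the titles.

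FPKM was used as deposited. The test was limma 3.58.1 in R 4.3.3, as stated beside the results. Alternatives were a filter at 1 FPKM or none, pseudocounts of 0.01 and 1, quantile and median-of-ratios scaling, TPM with and without short RNA genes, robust limma, limma without trend, a block for the replicate number, and each library left out. No counts were given, so depth was estimated from the median of values between 0.035 and 0.08 FPKM times kilobases. That range was set after the values were seen, and it bounds the estimate. The check of shared stretches of 75 nt was also added then. Positions came from GENCODE release 29. Promoter sequences came from RefSeq and matched 4 of the 7 genes. Protein sequences were not used here.

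The members and lists were chosen with earlier results of these data known. Named were the 7 genes, up to 4 called genes per list with the largest change, in lists where fewer than 2 were called the 1 or 2 most abundant, and the 2 nearest genes to each member by level. Others are marked where they appear, and some genes that this rule names are not reported.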

Additional observations from a re-analysis of the deposited data

Results flagged for a closer look

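In 4 of 32 groups of 4 libraries, 1 library's gap to the nearest of the others, divided by the group's range, exceeded Dixon's critical value of 0.829, which chance exceeds in about 1 in 20 groups. In 3 of them the library is IFN-γ replicate 4, which also had the lowest correlations with its group.

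PML in the IFN-γ group had a gap share of 0.919, with replicate 4 at 20.06 FPKM and the others at 21.57 to 21.70. Without it the log2 change of PML was 1.94 (limma adjusted p = 1.0e-08). The log2 ratio of SP110 to SP100 in the IFN-γ group had a gap share of 0.869, with a ratio of 1.245 in replicate 4 and 1.316 to 1.327 in the others. The log2 ratio of DAXX to ATRX had a gap share of 0.834, with a ratio of 0.987 in replicate 4 and 0.808 to 0.835 in the others. The share of SP140L in the summed FPKM of the SP100 family had a gap share of 0.887, with 7.43% in replicate 1 and 8.79 to 8.96% in the others.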

How the results depend on the processing

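The calls of PML, SP100, SP110 and SP140L were kept in all 19 alternatives, with log2 changes of 1.76 to 2.72, 4.15 to 9.29, 4.08 to 6.25 and 2.26 to 8.56. No alternative called a member lower, and 4 to 6 were called higher. The difference of SP140 was 0.34 and 4.69 with pseudocounts of 1 and 0.01, 2.31 in TPM and 2.77 in TPM without short RNA genes. In TPM, DAXX (0.80, limma adjusted p = 0.0258) and ATRX (0.78, 0.0287) reversed in sign, with 9442 genes higher and 20 lower overall. Short RNA genes made 35.8 to 71.8% of the FPKM sum in untreated libraries and 30.0 to 36.7% with IFN-γ. Without them 1143 genes were higher, and with quantile normalization 2570 were lower, against 1809 higher and 1230 lower as reported. Among the ratios, the group difference of SP110 to SP100 was -0.075 with a pseudocount of 1, against -1.56 with 0.1. That of SP140L to SP100 was -0.72 with 0.01, against -1.78 with 0.1. Both were no longer called, and the untreated side of each rests on the pseudocount. The cause of these moves was not tested.

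Lists moved more. In TPM, the higher calls were 13 in SUMO conjugation, 8 in SUMO removal, 12 in PML turnover, 20 in clients, 14 in H3.3 deposition (1 lower), 6 in domain relatives, 5, 3 and 9 in the flanks of the cluster, PML and DAXX, and the lower calls of the other lists that had any were 0. In TPM without short RNA genes, clients had 2 higher and 3 lower, and lower calls were 1 in SUMO conjugation, 2 in H3.3 deposition, 2 in domain relatives (0 higher), and 3, 4 and 1 in the flanks of PML, DAXX and ATRX. There and with quantile normalization the flanks of the cluster and of PML had 0 higher. With quantile normalization lower calls were 5 in SUMO conjugation (1 higher), 5 in PML turnover, 5 in clients, 7 in H3.3 deposition, 2 in domain relatives, 3 in PML flanks and 5 in DAXX flanks. Median-of-ratios scaling gave 1 lower in H3.3 deposition. With no filter, cluster flanks had 1 higher and 1 lower and DAXX flanks 1 lower, and without the trend the same, with 0 lower in domain relatives. Robust fitting left 1 higher cluster flank.

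With single libraries left out, 1474 to 2165 genes were higher and 854 to 1698 lower, with 4 members higher and 0 lower each time. Without a single library, called genes numbered 0 to 1 higher in SUMO conjugation, 0 to 1 lower in SUMO removal, 1 to 2 higher and 0 to 1 lower in PML turnover, 1 to 3 lower in clients, 0 to 2 higher and 0 to 3 lower in H3.3 deposition, 0 to 1 lower in domain relatives, 1 to 2 higher and 0 to 2 lower in cluster flanks, 0 to 2 higher and 1 to 2 lower in PML flanks, 1 to 3 lower in DAXX flanks and 0 to 1 lower in ATRX flanks.

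Deviations of same-numbered libraries correlated weakly at most (r = -0.0275, 0.079, 0.0612 and 0.0614). IFN-γ replicates 2, 3 and 4 correlated best with the untreated library of their own number, and replicate 1 with untreated replicate 3 (0.0862). These values are small, and the numbers were not taken to pair the libraries. With the replicate number as a block, 1639 genes were higher and 1017 lower, with 4 members higher and 0 lower. The block gave 1 higher in H3.3 deposition, 0 lower in domain relatives, 1 higher in cluster flanks, 2 higher in PML flanks and 1 lower in DAXX flanks.

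Depth limits the low values. At the estimated depth, untreated SP100 and SP110 and SP140 with IFN-γ rest on at most about 22 fragments per library. A listed 0 can be a failed estimate.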
